A study of Homo sapiens with 11 samples.

Results

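The genes described here are 33 interferon-stimulated genes, chosen by name from the genes that type I interferon is known to induce, and measured on Agilent whole human genome arrays in the human T cell leukemia line CCRF-CEM and its bortezomib-resistant sublines. Of the 33, 32 had a probe and were tested among 17372 genes, with 48 probes in all, of which 47 were kept. STAT2, a subunit of the interferon-activated transcription factor ISGF3, had no probe annotated to it, so its expression was not measured. Bortezomib (BTZ) inhibits the proteasome, and the study compared sublines selected in rising concentrations of it with parental CEM/WT cells. The 11 RNA samples fell into 6 groups. CEM/BTZ7, selected at 7 nM and exposed to 7 nM BTZ for 24 h, had 3 samples. A single sample each came from CEM/BTZ100 exposed to 100 nM for 24 h, from CEM/BTZ200 exposed to 200 nM for 24 h, and from CEM/BTZ-200, the 200 nM subline kept without drug. CEM/WT_BTZ, parental cells after 24 h in 7 nM BTZ, had 3 samples, and untreated CEM/WT had 2. The labels describe sublines held in drug that was renewed 24 h before RNA isolation, while the methods give a drug-free week before the 24 h exposure. CEM/BTZ-200 was drug-free for several weeks by the methods and for several months by its label. Each subline is a single line, and nothing in the sources says that replicates were separate cultures, so p-values cover only sample-to-sample spread that may be technical. A group of 1 sample was assumed to vary like the groups with replicates.

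Type I interferons bind a receptor whose kinases activate the transcription factor complex ISGF3, of which IRF9 is the DNA-binding part. ISGF3 binds the interferon-stimulated response element (ISRE) in promoters and switches on a battery of antiviral genes. The products include proteins that block virus entry (IFITM), bind or degrade viral RNA (IFIT, OAS, ISG20), trap viral particles or capsids (BST2, MX1, MX2), sense RNA (RIGI, IFIH1), and tag proteins with the ubiquitin-like modifier ISG15.

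The ISRE is shown here because it is the promoter element that ISGF3 binds. Promoter windows of 300 bases (250 before and 50 after each transcript start) came from RefSeq on GRCh38.p14 and were found for 25 of the 33 genes. IFIT2, MX2, OAS2, OASL, IRF7, IFITM2, USP18 and GBP2 had none. The letters GAAANNGAAA, searched on both strands with overlapping matches counted, occurred in the window of 17 of the 25, against 4.38% of the symbols with a window and 3.57% of all windows. No match was found in IFI35, OAS1, STAT2, IRF1, IRF9, RIGI, XAF1 or SP100. A match is a description of letters and not a measured binding site. The stretches below belong to 8 genes whose levels are described later. Each is written on the strand of the gene, with matches in capitals, so that capitals beginning with TTTC are matches on the opposite strand.
IFITM1 (chr11:313980-314063, plus strand): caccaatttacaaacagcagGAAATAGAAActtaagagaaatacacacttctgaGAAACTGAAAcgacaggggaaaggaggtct
IFITM3 (chr11:320866-320932, minus strand): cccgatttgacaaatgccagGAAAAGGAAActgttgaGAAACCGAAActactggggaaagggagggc
OAS3 (chr12:112938311-112938491, plus strand): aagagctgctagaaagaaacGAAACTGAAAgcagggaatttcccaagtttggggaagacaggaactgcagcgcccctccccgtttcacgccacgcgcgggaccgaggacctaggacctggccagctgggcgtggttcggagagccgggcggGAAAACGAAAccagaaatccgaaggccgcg
MX1 (chr21:41420549-41420587, plus strand): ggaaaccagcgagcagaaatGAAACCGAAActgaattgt
HERC5 (chr4:88456974-88457074, plus strand): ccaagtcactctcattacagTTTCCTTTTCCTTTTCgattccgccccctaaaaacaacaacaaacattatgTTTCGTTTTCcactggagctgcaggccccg
ISG15 (chr1:1013364-1013419, plus strand): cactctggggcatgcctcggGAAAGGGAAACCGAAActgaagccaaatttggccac
IFI44 (chr1:78649751-78649800, plus strand): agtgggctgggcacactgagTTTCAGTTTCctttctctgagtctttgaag
ISG20 (chr15:88638927-88638976, plus strand): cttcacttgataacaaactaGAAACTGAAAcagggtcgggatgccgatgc
In IFITM1 the matches began 40 and 6 bases before the transcript start, and in IFITM3 they began 52 and 35 bases before it. ISG15 and HERC5 each held a pair of overlapping matches, printed as a single run of capitals.

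**Figure D1:**
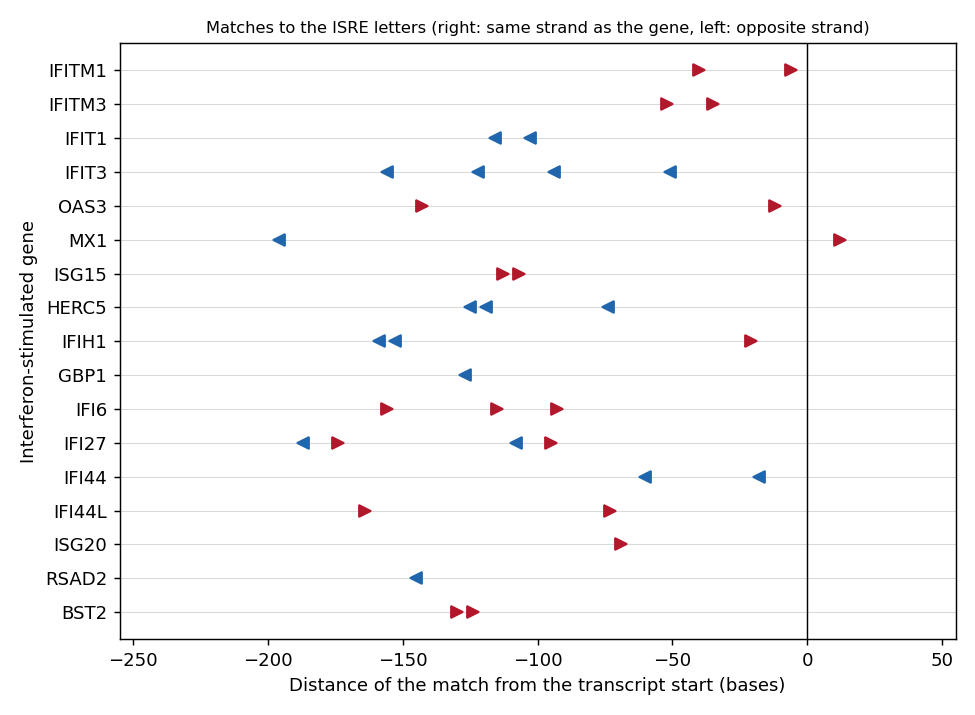
Each triangle is a match to the ISRE letters in a promoter window, placed by its distance in bases from the transcript start (x axis, start at 0); red triangles point right for the strand of the gene, blue triangles point left for the opposite strand. The 17 genes with a match are shown, and genes with several annotated starts carry the matches of every window.

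Signals were the deposited processed intensities after quantile normalization of the 11 samples, and their log2 is here called the log2 level. CEM/BTZ-200 and CEM/BTZ200 had the lowest median intensities, 67.3 and 67.96, and those of the 9 others ran from 124 to 188.5. A gene was below background in a sample if it did not exceed the 95th percentile of the negative control spots there, which lay between 2.80 and 4.47 on the log2 scale. By this measure 27 of the 32 genes were above background in all 11 samples and none was below it in all of them. OAS1 was below background in CEM/BTZ100, CEM/BTZ200, CEM/BTZ-200 and 1 of 3 CEM/WT_BTZ samples. IFI44L was below it in CEM/BTZ-200 and 1 CEM/WT_BTZ sample, IFIH1 in CEM/BTZ100 and CEM/BTZ200, and OASL and GBP2 in CEM/BTZ-200. Of 14 markers of T lymphoblasts, 13 were above background in all samples. Signals of a marker list were summed before the log2 was taken, so its brightest markers weigh most. For T lymphoblasts this gave 17.20 to 17.36 in CEM/BTZ7 and 16.64 to 17.13 in the single samples. It gave 16.41 to 16.76 in CEM/WT_BTZ and 16.93 to 17.32 in CEM/WT. The 6 B cell markers with a probe, 4 of them above background in all samples, summed to 12.88 to 13.42 in CEM/BTZ7, 12.86 to 13.76 in the single samples, 14.10 to 15.19 in CEM/WT_BTZ and 13.45 to 13.96 in CEM/WT. Markers of plasmacytoid dendritic cells, the main makers of interferon alpha in blood, were above background in all samples for 3 of 4 and summed to 7.87 to 8.43 in CEM/BTZ7, 7.90 to 8.39 in the single samples, 8.66 to 9.53 in CEM/WT_BTZ and 8.74 to 9.89 in CEM/WT. The epithelial markers, 4 of 5 above background in all samples and CDH1 in none, summed to 12.14 to 12.56 in CEM/BTZ7, 11.75 to 11.95 in the single samples, 12.19 to 12.91 in CEM/WT_BTZ and 11.30 to 11.53 in CEM/WT, which lay below all other samples. The myeloid markers, 5 of 7 above background in all samples, summed to 9.31 to 11.66 in CEM/BTZ7, 9.43 to 11.32 in the single samples, 10.18 to 10.43 in CEM/WT_BTZ and 10.88 to 11.17 in CEM/WT. Their part in the results below was not tested. In bulk RNA, fewer cells that express a gene and less of its RNA per cell cannot be told apart.

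The interferon-stimulated genes did not move as a block under BTZ. In CEM/WT_BTZ against CEM/WT, 5 of 32 were higher (15.6%) and 7 lower (21.9%) at a Benjamini-Hochberg (BH) adjusted p under 0.05 over all genes in limma. Among all genes tested 6.48% were higher and 8.99% lower. Higher were ISG20, IFI44, GBP2, MX2 and RIGI, and lower were IFITM1, IFITM2, IFITM3, ISG15, SP100, USP18 and OAS3. In CEM/BTZ7 against CEM/WT_BTZ, at the same dose, 8 were higher (25%, against 12.2% of all genes) and 2 lower (6.25%, against 10.1%). Higher were USP18, HERC5, MX1, OAS3, ISG15, SP100, IFI27 and IFITM1, and lower were IFIT2 and OASL. In CEM/BTZ7 against CEM/WT, 5 were higher (15.6%, against 1.9% of all genes) and 3 lower (9.38%, against 1.54%). Here MX1, USP18, ISG20, IFI44 and RIGI were higher and the IFITM genes lower. The 3 comparisons share samples, and their calls are not independent.

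The median log2 fold change of the 32 genes was 0.18 in CEM/WT_BTZ against CEM/WT, 0.02 in CEM/BTZ7 against CEM/WT_BTZ and 0.12 in CEM/BTZ7 against CEM/WT, beside -0.02, 0.01 and -0.04 over all genes. Their median absolute log2 fold change was 0.80, 0.80 and 0.57 in the same order, beside 0.48, 0.48 and 0.30 over all genes. With 2 samples of CEM/WT, many calls against it rested on both of them. Without CEM/WT replicate 1, 2 of the 12 calls of CEM/WT_BTZ against CEM/WT and 1 of the 8 calls of CEM/BTZ7 against CEM/WT were kept, and without CEM/WT replicate 2, 3 of the 12 and 0 of the 8 (BH-adjusted p of those 8 from 0.0597 to 0.343). With the replicate number as a block, 18, 17 and 13 of the 32 genes were called in the 3 comparisons in place of 12, 10 and 8, but the same fit called 37.5%, 44% and 8.17% of all genes. The block thus raised the calls among all genes too.

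**Figure D2:**
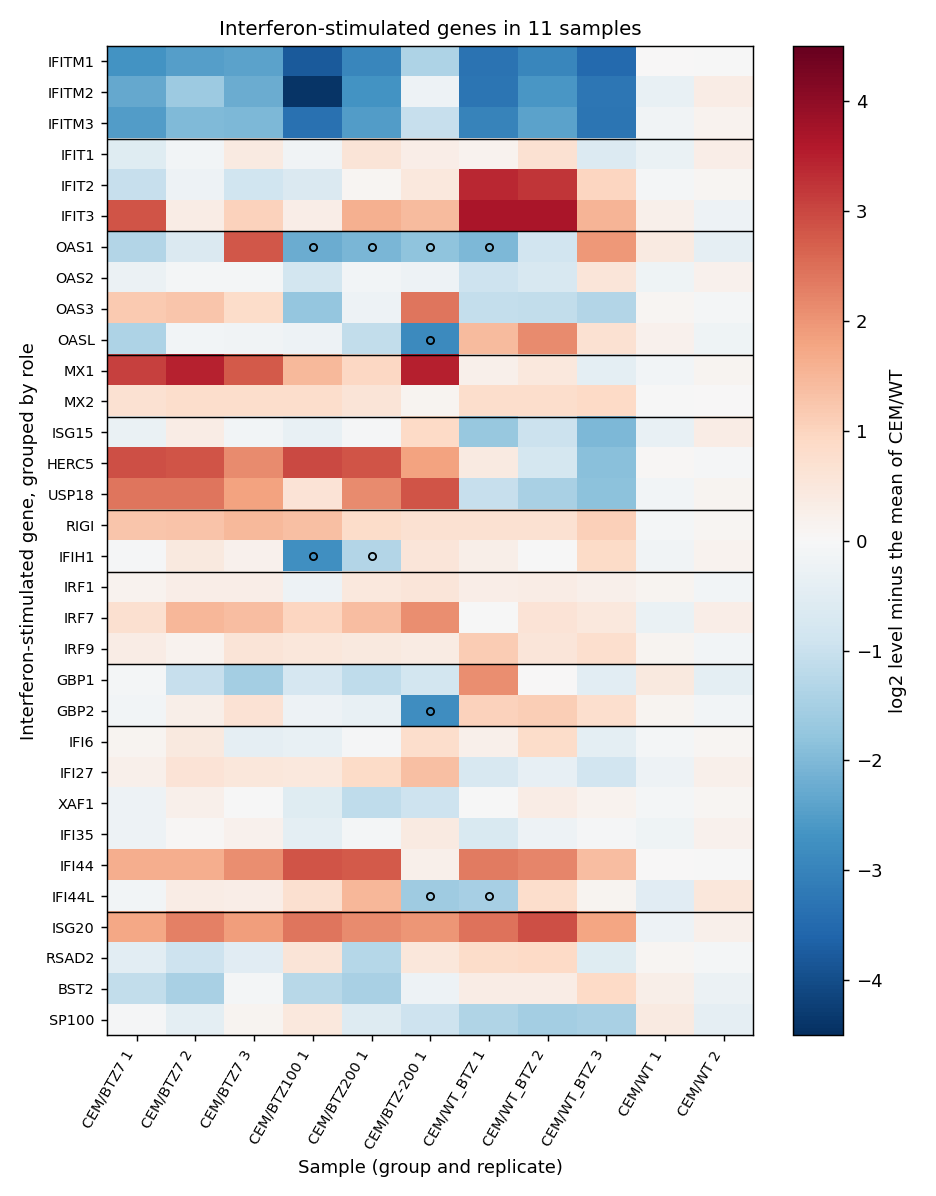
Colour gives the log2 level of each of the 32 interferon-stimulated genes (rows, grouped by role) in each of the 11 samples (columns) minus the mean of the CEM/WT samples, and open circles mark values below background. The IFITM1 and IFITM3 rows are blue in all samples but those of CEM/WT, MX1 is red in CEM/BTZ7 and CEM/BTZ-200, and ISG20 is red in all samples but those of CEM/WT.

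The IFITM genes, whose membrane proteins hinder the fusion of virus envelopes with the cell, had the largest falls among the 32 genes in CEM/WT_BTZ, by 9.78-fold for IFITM1, 8.12-fold for IFITM2 and 7.64-fold for IFITM3. IFITM1 had log2 levels of 15.13, 15.37 and 15.44 in CEM/BTZ7, 14.07 in CEM/BTZ100, 14.91 in CEM/BTZ200, 16.46 in CEM/BTZ-200, 14.52, 14.90 and 14.33 in CEM/WT_BTZ, and 17.86 and 17.81 in CEM/WT. Both CEM/WT samples lay above all others, drug-free CEM/BTZ-200 came next, and CEM/BTZ7 did not overlap with CEM/WT_BTZ. IFITM1 fell by 3.29 on the log2 scale in CEM/WT_BTZ against CEM/WT (standard error, SE, 0.212, BH-adjusted p = 0.00145) and fell by 2.48 in CEM/BTZ7 against CEM/WT (SE 0.212, BH-adjusted p = 0.003). It was higher in CEM/BTZ7 than CEM/WT_BTZ by 0.81 (SE 0.197, BH-adjusted p = 0.0314).

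IFITM2 was again highest in CEM/WT and CEM/BTZ-200, with log2 levels of 11.62, 12.29 and 11.66 in CEM/BTZ7, 9.50 in CEM/BTZ100, 11.21 in CEM/BTZ200, 13.69 in CEM/BTZ-200, 10.62, 11.30 and 10.67 in CEM/WT_BTZ, and 13.59 and 14.23 in CEM/WT. CEM/BTZ-200 lay between the CEM/WT samples here. The log2 fold change of IFITM2 was -3.02 in CEM/WT_BTZ against CEM/WT (SE 0.349, BH-adjusted p = 0.00575), -2.08 in CEM/BTZ7 against CEM/WT (SE 0.349, BH-adjusted p = 0.0297) and 0.94 in CEM/BTZ7 against CEM/WT_BTZ (SE 0.323, BH-adjusted p = 0.0866, and 0.00582 with the replicate block). IFITM3 had log2 levels of 13.34, 13.86 and 13.82 in CEM/BTZ7, 12.48 in CEM/BTZ100, 13.33 in CEM/BTZ200, 14.81 in CEM/BTZ-200, 12.84, 13.43 and 12.57 in CEM/WT_BTZ, and 15.70 and 15.99 in CEM/WT. Its highest CEM/WT_BTZ sample overlapped with CEM/BTZ7, and both groups lay below CEM/WT. IFITM3 had log2 fold changes of -2.93 in CEM/WT_BTZ against CEM/WT (SE 0.309, BH-adjusted p = 0.00445), -2.14 in CEM/BTZ7 against CEM/WT (SE 0.309, BH-adjusted p = 0.018) and 0.79 in CEM/BTZ7 against CEM/WT_BTZ (SE 0.287, BH-adjusted p = 0.0978, and 0.0078 with the replicate block).

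In the single samples against CEM/WT, the log2 fold changes of IFITM1, IFITM2 and IFITM3 were -3.87, -4.32 and -3.47 in CEM/BTZ100 (BH-adjusted p = 0.00346, 0.0122 and 0.0159) and -3.04, -2.61 and -2.61 in CEM/BTZ200 (BH-adjusted p = 0.00539, 0.0471 and 0.0314). In CEM/BTZ-200 they were -1.26, -0.30 and -0.94, and none was called (BH-adjusted p = 0.0793, 0.825 and 0.315). The falls of IFITM1 and IFITM3 in CEM/WT_BTZ, and that of IFITM1 in CEM/BTZ100, were called without each replicate in turn. That of IFITM2 in CEM/WT_BTZ was lost without CEM/WT replicate 1 or 2 (BH-adjusted p up to 0.053). The other IFITM calls leaned on more of the samples, most of them on both of CEM/WT. In CEM/BTZ7 against CEM/WT, IFITM1 was lost without CEM/WT replicate 2 (BH-adjusted p = 0.0597), and IFITM2 and IFITM3 without any 1 CEM/WT or CEM/BTZ7 replicate, IFITM2 also without CEM/WT_BTZ replicate 1 (BH-adjusted p up to 0.343 and 0.232). In CEM/BTZ100, IFITM2 and IFITM3 were lost without CEM/WT replicate 1 or 2 (up to 0.0821 and 0.0884). The falls in CEM/BTZ200 rested on a single sample of low signal. There IFITM1 was lost without CEM/WT replicate 1 (BH-adjusted p = 0.0534), and IFITM2 and IFITM3 without each replicate other than CEM/WT_BTZ replicate 2 (up to 0.155 and 0.106). The rise of IFITM1 in CEM/BTZ7 against CEM/WT_BTZ was kept only without CEM/WT_BTZ replicate 2 (BH-adjusted p otherwise up to 0.117), and was not called with 75th percentile scaling (0.52, BH-adjusted p = 0.187) or in the deposited value table (0.49, BH-adjusted p = 0.185). The 3 IFITM genes are close relatives, and signal that one transcript gives on another's probe was not tested, since probe sequences were not used here.

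**Figure D3:**
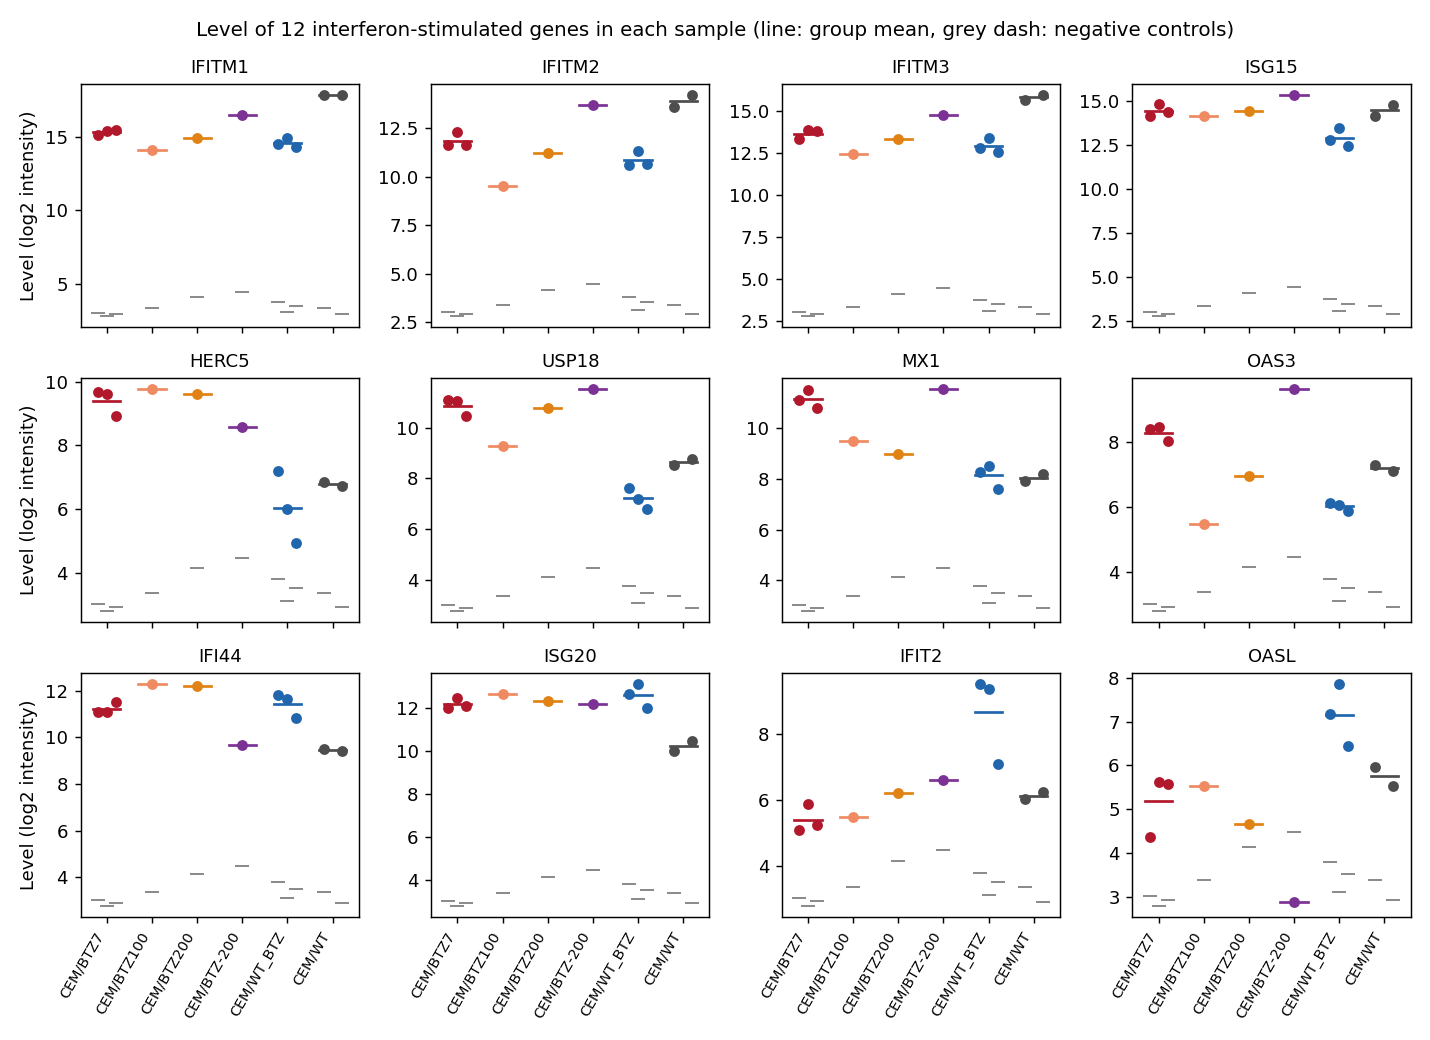
Points give the log2 level (y axis, log2 intensity) of 12 interferon-stimulated genes in each sample, by group; coloured lines are group means, and grey dashes are the 95th percentile of each sample's negative controls. IFITM1 lies between 14.07 and 16.46 outside CEM/WT, and OASL in CEM/BTZ-200 is the single point below its dash.

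ISG15 is conjugated to proteins by a cascade that ends in the ligase HERC5 and is removed by USP18, which also dampens signalling at the interferon receptor. CEM/BTZ7 had more of all 3 than CEM/WT_BTZ, USP18 by 12.3-fold and HERC5 by 11.3-fold. USP18 is among the genes that the study displayed for this comparison, so its value is not independent of that choice. USP18 had log2 levels of 11.07, 11.05 and 10.46 in CEM/BTZ7, 9.27 in CEM/BTZ100, 10.77 in CEM/BTZ200, 11.50 in CEM/BTZ-200, 7.63, 7.21 and 6.81 in CEM/WT_BTZ, and 8.54 and 8.77 in CEM/WT. Every subline sample lay above both CEM/WT samples, and these above all CEM/WT_BTZ samples. Its log2 fold change was 3.63 in CEM/BTZ7 against CEM/WT_BTZ (SE 0.3, BH-adjusted p = 0.00144) and 2.19 in CEM/BTZ7 against CEM/WT (SE 0.324, BH-adjusted p = 0.019). In CEM/WT_BTZ against CEM/WT USP18 fell by 1.43 on the log2 scale (SE 0.324, BH-adjusted p = 0.0331). The other USP18 probe gave 3.65 (BH-adjusted p = 0.00619 among probes) in CEM/BTZ7 against CEM/WT_BTZ, 2.52 in CEM/BTZ7 against CEM/WT (BH-adjusted p = 0.0771 among probes) and -1.13 in CEM/WT_BTZ against CEM/WT (BH-adjusted p = 0.21 among probes). A USP18-like pseudogene, USP41P, is also on the array, and signal shared between the transcripts was not tested.

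HERC5 had log2 levels of 9.69, 9.60 and 8.92 in CEM/BTZ7, 9.76 in CEM/BTZ100, 9.62 in CEM/BTZ200, 8.59 in CEM/BTZ-200, 7.2, 5.99 and 4.92 in CEM/WT_BTZ, and 6.84 and 6.73 in CEM/WT. The subline samples all lay above the parental ones, with and without drug, and CEM/WT_BTZ had a wide spread. The log2 fold change of HERC5 was 3.49 in CEM/BTZ7 against CEM/WT_BTZ (SE 0.575, BH-adjusted p = 0.00932), 2.68 in CEM/BTZ7 against CEM/WT (SE 0.621, BH-adjusted p = 0.0843, and 0.0358 with the replicate block) and -0.81 in CEM/WT_BTZ against CEM/WT (SE 0.621, BH-adjusted p = 0.43). The deposited value table also called HERC5 in CEM/BTZ7 against CEM/WT (2.30, BH-adjusted p = 0.0108). So did fits of only these 2 groups (BH-adjusted p = 0.0316) and with an intensity trend in the variance (0.0485). ISG15 had log2 levels of 14.16, 14.80 and 14.35 in CEM/BTZ7, 14.14 in CEM/BTZ100, 14.43 in CEM/BTZ200, 15.35 in CEM/BTZ-200, 12.78, 13.49 and 12.46 in CEM/WT_BTZ, and 14.15 and 14.79 in CEM/WT. The CEM/WT_BTZ samples stood below all others. ISG15 was higher in CEM/BTZ7 than CEM/WT_BTZ by 1.53 on the log2 scale (SE 0.365, BH-adjusted p = 0.0292), had a log2 fold change of -1.56 in CEM/WT_BTZ against CEM/WT (SE 0.395, BH-adjusted p = 0.0451), and one of -0.03 in CEM/BTZ7 against CEM/WT (SE 0.395, BH-adjusted p = 0.983).

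The rises of USP18 and HERC5 in CEM/BTZ7 against CEM/WT_BTZ were called without each replicate in turn, with BH-adjusted p up to 0.00941 and 0.0369. That of ISG15 was lost without CEM/BTZ7 replicate 2 or 3 or CEM/WT_BTZ replicate 1 or 3 (BH-adjusted p up to 0.123) and with 75th percentile scaling (1.34, BH-adjusted p = 0.059). After BTZ in CEM/WT, the call of ISG15 was kept only without CEM/WT_BTZ replicate 2 (BH-adjusted p otherwise up to 0.242) and that of USP18 only without CEM/BTZ7 replicate 3 or CEM/WT_BTZ replicate 1 (otherwise up to 0.173). The call of USP18 in CEM/BTZ7 against CEM/WT was lost without CEM/WT replicate 1 or 2 or CEM/BTZ7 replicate 1 or 2 (up to 0.185). In CEM/BTZ-200 against CEM/WT, USP18 rose by 2.81 on the log2 scale (SE 0.450, BH-adjusted p = 0.0329), a call lost without CEM/WT replicate 1 or 2, CEM/BTZ7 replicate 1 or 2 or CEM/WT_BTZ replicate 2 (up to 0.187). The log2 fold changes of USP18 in CEM/BTZ100 (0.65, BH-adjusted p = 0.621) and CEM/BTZ200 (2.14, BH-adjusted p = 0.0667) did not pass the test.

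MX1 and MX2 encode dynamin-like GTPases that bind viral nucleocapsids and capsids. MX1 was about equally high in CEM/BTZ7 and in drug-free CEM/BTZ-200 and low in parental cells. Its log2 levels were 11.11, 11.51 and 10.80 in CEM/BTZ7, 9.51 in CEM/BTZ100, 8.99 in CEM/BTZ200, 11.53 in CEM/BTZ-200, 8.29, 8.51 and 7.61 in CEM/WT_BTZ, and 7.91 and 8.18 in CEM/WT. CEM/WT lay within the range of CEM/WT_BTZ, and no subline sample overlapped with either. For MX1 the log2 fold change was 3.02 in CEM/BTZ7 against CEM/WT_BTZ (SE 0.326, BH-adjusted p = 0.00281), 3.10 in CEM/BTZ7 against CEM/WT (SE 0.352, BH-adjusted p = 0.00767) and 0.09 in CEM/WT_BTZ against CEM/WT (SE 0.352, BH-adjusted p = 0.897). The first was called without each replicate in turn, and the second was lost without CEM/WT replicate 1 or 2 (up to 0.0888). Relative to CEM/WT, MX1 rose by 3.50 in CEM/BTZ-200 (SE 0.489, BH-adjusted p = 0.0248), a call lost without CEM/WT replicate 1 or 2, CEM/BTZ7 replicate 1 or 2 or CEM/WT_BTZ replicate 1 (up to 0.144). In CEM/BTZ100 and CEM/BTZ200 its log2 fold changes were 1.45 (BH-adjusted p = 0.236) and 0.93 (BH-adjusted p = 0.481).

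MX2 had log2 levels of 12.44, 12.55 and 12.56 in CEM/BTZ7, 12.57 in CEM/BTZ100, 12.34 in CEM/BTZ200, 11.90 in CEM/BTZ-200, 12.56, 12.56 and 12.66 in CEM/WT_BTZ, and 11.74 and 11.80 in CEM/WT. It differed from MX1 in being higher in CEM/WT_BTZ than in CEM/WT, without overlap. MX2 rose there by 0.83 on the log2 scale (SE 0.171, BH-adjusted p = 0.025), a call lost without CEM/BTZ7 replicate 2, without CEM/WT_BTZ replicate 1 or 2 and without either CEM/WT replicate (up to 0.186). Its log2 fold change was 0.74 in CEM/BTZ7 against CEM/WT (SE 0.171, BH-adjusted p = 0.0825, and 0.04 with the replicate block) and -0.09 against CEM/WT_BTZ (SE 0.158, BH-adjusted p = 0.751). The second MX2 probe gave 0.72 in CEM/WT_BTZ against CEM/WT (BH-adjusted p = 0.103 among probes) and 1.01 in CEM/BTZ7 against CEM/WT (BH-adjusted p = 0.112 among probes).

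The OAS enzymes sense double-stranded RNA and make oligoadenylates that activate RNase L, whereas OASL lacks that activity and binds the RNA sensor RIG-I. OAS3 and OASL moved in opposite directions in CEM/BTZ7 against CEM/WT_BTZ. OAS3 had log2 levels of 8.39, 8.45 and 8.03 in CEM/BTZ7, 5.46 in CEM/BTZ100, 6.96 in CEM/BTZ200, 9.62 in CEM/BTZ-200, 6.12, 6.07 and 5.86 in CEM/WT_BTZ, and 7.28 and 7.11 in CEM/WT. The drug-free 200 nM subline was the highest sample and CEM/BTZ100 the lowest, and the groups with replicates did not overlap. OAS3 had a log2 fold change of 2.27 in CEM/BTZ7 against CEM/WT_BTZ (SE 0.202, BH-adjusted p = 0.0017), called without each replicate in turn, and of -1.18 in CEM/WT_BTZ against CEM/WT (SE 0.218, BH-adjusted p = 0.0182), lost without CEM/WT replicate 1 or 2 or CEM/WT_BTZ replicate 1 (up to 0.169) and -0.57 in the deposited value table (BH-adjusted p = 0.117). In CEM/BTZ7 against CEM/WT it was 1.10 (SE 0.218, BH-adjusted p = 0.0543, and 0.0235 with the replicate block). That contrast was also called in the deposited value table (0.97, BH-adjusted p = 0.0463) and without a dye term (1.10, BH-adjusted p = 0.0261). On the second OAS3 probe it was 0.38 (BH-adjusted p = 0.6 among probes). This probe gave 0.93 in CEM/BTZ7 against CEM/WT_BTZ (BH-adjusted p = 0.0346 among probes) and -0.55 in CEM/WT_BTZ against CEM/WT (BH-adjusted p = 0.194 among probes).

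Relative to CEM/WT, OAS3 rose by 2.42 on the log2 scale in CEM/BTZ-200 (SE 0.302, BH-adjusted p = 0.0175) and fell by 1.73 in CEM/BTZ100 (SE 0.302, BH-adjusted p = 0.0439). The first was not called if CEM/WT replicate 1 or 2 or CEM/BTZ7 replicate 2 was left out (up to 0.152), and the second was kept only without CEM/BTZ7 replicate 3 (otherwise up to 0.258). The second probe moved less, by 1.37 in CEM/BTZ-200 and -0.87 in CEM/BTZ100 (BH-adjusted p = 0.106 and 0.343 among probes). In CEM/BTZ100 the call was also lost in the deposited value table (-1.16, BH-adjusted p = 0.1), with the mean of both probes (-1.30, BH-adjusted p = 0.0701) and with an intensity trend in the variance (BH-adjusted p = 0.0517). OASL had log2 levels of 4.37, 5.62 and 5.58 in CEM/BTZ7, 5.53 in CEM/BTZ100, 4.66 in CEM/BTZ200, 2.87 in CEM/BTZ-200, 7.18, 7.86 and 6.45 in CEM/WT_BTZ, and 5.96 and 5.54 in CEM/WT. The CEM/WT_BTZ samples were the 3 highest, and CEM/BTZ7 overlapped with CEM/WT. OASL had log2 fold changes of -1.73 in CEM/BTZ7 against CEM/WT_BTZ (SE 0.393, BH-adjusted p = 0.025), 1.29 in CEM/WT_BTZ against CEM/WT (SE 0.424, BH-adjusted p = 0.0894, and 0.0219 with the replicate block) and -0.44 in CEM/BTZ7 against CEM/WT (SE 0.424, BH-adjusted p = 0.723). The call of OASL was kept only without CEM/BTZ7 replicate 1 or 2 (otherwise up to 0.127), and the deposited value table gave -0.65 (BH-adjusted p = 0.0837). OAS1 ranged from 2.38 to 7.41 on the log2 scale and OAS2 from 4.98 to 6.43, and neither was called in a comparison. OAS1 was highest in CEM/BTZ7 replicate 3 and CEM/WT_BTZ replicate 3, at 7.41 and 6.54, beside 2.38 to 5.01 in the other samples. A second OAS2 probe exceeded background in 2 samples, CEM/BTZ7 replicate 3 and CEM/BTZ-200, and disagreed with the brighter one in CEM/BTZ-200 against CEM/WT (2.25, SE 0.458, and -0.52, SE 0.503, neither called).

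The IFIT proteins bind the ends of viral RNA. IFIT2 was higher in parental cells under drug than in CEM/BTZ7 by 8.06-fold. It had log2 levels of 5.07, 5.88 and 5.23 in CEM/BTZ7, 5.47 in CEM/BTZ100, 6.21 in CEM/BTZ200, 6.61 in CEM/BTZ-200, 9.50, 9.35 and 7.07 in CEM/WT_BTZ, and 6.02 and 6.22 in CEM/WT. The CEM/WT_BTZ samples lay above all others, although replicate 3 stood well below the other two. In CEM/BTZ7 against CEM/WT_BTZ IFIT2 fell by 3.01 on the log2 scale (SE 0.618, BH-adjusted p = 0.0186, and 0.113 without CEM/BTZ7 replicate 3). The log2 fold change was 2.40 in CEM/WT_BTZ against CEM/WT (SE 0.668, BH-adjusted p = 0.0586, and 0.0128 with the replicate block) and -0.61 in CEM/BTZ7 against CEM/WT (SE 0.668, BH-adjusted p = 0.76). The first was also called in the deposited value table (1.41, BH-adjusted p = 0.0244), with an intensity trend (0.0377) and without a dye term (0.0426). A second IFIT2 probe exceeded background only in CEM/WT_BTZ replicates 1 and 2, at 6.67 and 5.53. IFIT3 ranged from 3.02 to 6.93 and IFIT1 from 7.08 to 8.41, and neither was called. IFIT3 had 6.93, 6.93 and 4.80 in CEM/WT_BTZ and 3.49 and 3.02 in CEM/WT, with a log2 fold change of 2.85 (SE 0.869, BH-adjusted p = 0.0744, and 0.0394 with the replicate block).

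IFI44, a cytoplasmic protein with antiviral activity, and ISG20, an RNA exonuclease, rose in CEM/WT_BTZ and were about as high in CEM/BTZ7. ISG20 had log2 levels of 11.98, 12.49 and 12.10 in CEM/BTZ7, 12.65 in CEM/BTZ100, 12.34 in CEM/BTZ200, 12.21 in CEM/BTZ-200, 12.66, 13.12 and 12 in CEM/WT_BTZ, and 9.99 and 10.46 in CEM/WT. All 9 samples of drug-exposed or resistant cells lay above CEM/WT, drug-free CEM/BTZ-200 included. The log2 fold change of ISG20 was 2.34 in CEM/WT_BTZ against CEM/WT (SE 0.373, BH-adjusted p = 0.0117), 1.99 in CEM/BTZ7 against CEM/WT (SE 0.373, BH-adjusted p = 0.0442) and -0.36 in CEM/BTZ7 against CEM/WT_BTZ (SE 0.345, BH-adjusted p = 0.514). Relative to CEM/WT it was 2.35 in CEM/BTZ100, 2.04 in CEM/BTZ200 and 2.06 in CEM/BTZ-200, and none of these passed the test (BH-adjusted p = 0.0816, 0.118 and 0.094). The ISG20 call in CEM/WT_BTZ against CEM/WT was lost if CEM/WT replicate 1 or 2 was left out. That in CEM/BTZ7 against CEM/WT was kept only without CEM/WT_BTZ replicate 2 or 3. Without each replicate in turn, the log2 fold changes ran from 1.88 to 2.8 in CEM/WT_BTZ and from 1.6 to 2.45 in CEM/BTZ7.

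IFI44 had log2 levels of 11.09, 11.08 and 11.54 in CEM/BTZ7, 12.29 in CEM/BTZ100, 12.22 in CEM/BTZ200, 9.68 in CEM/BTZ-200, 11.80, 11.65 and 10.85 in CEM/WT_BTZ, and 9.49 and 9.43 in CEM/WT. CEM/BTZ-200 lay just above the CEM/WT samples, and the 8 samples under drug were all higher. IFI44 rose in CEM/WT_BTZ against CEM/WT by 1.89 on the log2 scale (SE 0.232, BH-adjusted p = 0.00632), in CEM/BTZ7 by 1.85 (SE 0.232, BH-adjusted p = 0.0108), in CEM/BTZ100 by 2.58 (SE 0.323, BH-adjusted p = 0.0159) and in CEM/BTZ200 by 2.51 (SE 0.323, BH-adjusted p = 0.0135). In CEM/BTZ-200 its log2 fold change was 0.47 (SE 0.323, BH-adjusted p = 0.528), and in CEM/BTZ7 against CEM/WT_BTZ it was -0.03 (SE 0.215, BH-adjusted p = 0.936). The calls were lost without CEM/WT replicate 1 in all 4 groups (BH-adjusted p up to 0.123), that of CEM/BTZ7 also without CEM/WT replicate 2 or CEM/BTZ7 replicate 2 or 3, and that of CEM/BTZ100 also without CEM/BTZ7 replicate 2. IFI44L, its neighbour and paralog, ranged from 2.60 to 5.70 and was not called.

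RIGI and IFIH1 encode the cytoplasmic RNA helicases RIG-I and MDA5, which detect viral RNA and start interferon production. RIGI had log2 levels of 9.19, 9.21 and 9.39 in CEM/BTZ7, 9.30 in CEM/BTZ100, 8.78 in CEM/BTZ200, 8.62 in CEM/BTZ-200, 8.62, 8.61 and 9 in CEM/WT_BTZ, and 7.84 and 8.04 in CEM/WT. The CEM/WT samples were the lowest, and CEM/BTZ7 lay above CEM/WT_BTZ without overlap. RIGI had log2 fold changes of 1.30 in CEM/BTZ7 against CEM/WT (SE 0.205, BH-adjusted p = 0.0236), 0.82 in CEM/WT_BTZ against CEM/WT (SE 0.205, BH-adjusted p = 0.0435) and 0.48 in CEM/BTZ7 against CEM/WT_BTZ (SE 0.190, BH-adjusted p = 0.122, and 0.021 with the replicate block). The first was kept only without CEM/WT_BTZ replicate 2 or 3 (otherwise up to 0.225), and the second only without CEM/BTZ7 replicate 3 (otherwise up to 0.262). IFIH1 lay between 5.01 and 6.03 in CEM/BTZ7, CEM/BTZ-200, CEM/WT_BTZ and CEM/WT, and was below background in CEM/BTZ100 and CEM/BTZ200. It was at least 3.5-fold lower in CEM/BTZ100 than in CEM/WT (BH-adjusted p = 0.0246), and at least 2.06-fold lower in CEM/BTZ200 (BH-adjusted p = 0.219). The call in CEM/BTZ100 was lost without CEM/WT replicate 1 or 2, CEM/BTZ7 replicate 2 or CEM/WT_BTZ replicate 1 (up to 0.166), and the deposited value table gave a log2 fold change of -0.41 (BH-adjusted p = 0.596). Such bounds set the mean of the bright group against the higher of the dim sample's value and its negative control percentile.

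Among the interferon regulatory factors, which carry the signal into the nucleus, none was called in a comparison. IRF1 ranged from 9.92 to 10.69, IRF7 from 8.98 to 11.36 and IRF9 from 7.92 to 9.16. IRF7, the factor that amplifies interferon alpha production, had 9.98, 10.75 and 10.64 in CEM/BTZ7, 11.36 in CEM/BTZ-200 and 8.98 and 9.55 in CEM/WT, and its log2 fold change in CEM/BTZ7 against CEM/WT was 1.18 (SE 0.350, BH-adjusted p = 0.171, and 0.0211 with the replicate block). Relative to CEM/WT_BTZ it was 0.80 (SE 0.324, BH-adjusted p = 0.132, and 0.00767 with the replicate block). The second IRF7 probe gave 0.49 and 0.13 in these comparisons, neither called. IRF9, the DNA-binding part of ISGF3, had a log2 fold change of 0.78 in CEM/WT_BTZ against CEM/WT (SE 0.229, BH-adjusted p = 0.0687, and 0.0381 with the replicate block).

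GBP1 and GBP2 are large GTPases induced by interferons, above all interferon gamma. GBP2 had log2 levels of 5.28, 5.67 and 6.05 in CEM/BTZ7, 5.17 in CEM/BTZ100, 5.06 in CEM/BTZ200, 2.63 in CEM/BTZ-200, 6.45, 6.53 and 6.18 in CEM/WT_BTZ, and 5.54 and 5.28 in CEM/WT. The CEM/WT_BTZ samples were the highest, and CEM/BTZ-200 was below background. GBP2 had log2 fold changes of 0.91 in CEM/WT_BTZ against CEM/WT (SE 0.206, BH-adjusted p = 0.0331), 0.32 in CEM/BTZ7 against CEM/WT (SE 0.206, BH-adjusted p = 0.57) and -0.59 in CEM/BTZ7 against CEM/WT_BTZ (SE 0.191, BH-adjusted p = 0.0723, and 0.0242 with the replicate block). The call in CEM/WT_BTZ was kept only without CEM/BTZ7 replicate 1 or 3 (otherwise up to 0.239) and was lost in the deposited value table (0.39, BH-adjusted p = 0.279). In CEM/BTZ-200 GBP2 was at least 1.92-fold lower than in CEM/WT (BH-adjusted p = 0.0141), lost without CEM/WT replicate 1 or 2 or CEM/BTZ7 replicate 2 (up to 0.126). The deposited value table did not call it and gave a log2 fold change of -0.81 (BH-adjusted p = 0.191), smaller than that bound. GBP1 ranged from 4.09 to 7.71 and was not called in a comparison, but in CEM/BTZ7 against CEM/WT_BTZ it had a log2 fold change of -1.27 (BH-adjusted p = 0.282, and 0.0433 with the replicate block). A second GBP1 probe exceeded background in 1 sample and was left out.

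IFI27, a small mitochondrial protein linked to cell death, had log2 levels of 7.89, 8.29 and 8.18 in CEM/BTZ7, 8.15 in CEM/BTZ100, 8.52 in CEM/BTZ200, 9.02 in CEM/BTZ-200, 6.97, 7.31 and 6.83 in CEM/WT_BTZ, and 7.43 and 7.92 in CEM/WT. The 3 CEM/WT_BTZ samples were the lowest. IFI27 was higher in CEM/BTZ7 than CEM/WT_BTZ by 1.09 on the log2 scale (SE 0.246, BH-adjusted p = 0.0252), lost without CEM/BTZ7 replicate 2 or 3 or CEM/WT_BTZ replicate 1 or 3 (up to 0.123), and its second probe gave 1.35 (BH-adjusted p = 0.0185 among probes). It had log2 fold changes of -0.64 in CEM/WT_BTZ against CEM/WT (SE 0.266, BH-adjusted p = 0.159, and 0.0316 with the replicate block) and 0.44 in CEM/BTZ7 against CEM/WT (SE 0.266, BH-adjusted p = 0.536). BST2, or tetherin, which holds budding virus at the cell surface, ranged from 10.80 to 13.14. It had 11.16, 10.80 and 12.17 in CEM/BTZ7, 12.58, 12.60 and 13.14 in CEM/WT_BTZ, and 12.53 and 11.99 in CEM/WT. BST2 was not called in the fit without a block, with log2 fold changes of -1.27 in CEM/BTZ7 against CEM/WT_BTZ (BH-adjusted p = 0.0609, and 0.00646 with the replicate block) and -0.82 against CEM/WT (BH-adjusted p = 0.451, and 0.0327 with the replicate block). RSAD2, or viperin, ranged from 5.86 to 8.03, the mitochondrial protein gene IFI6 from 8.39 to 9.66, and the apoptosis-linked gene XAF1 from 7.15 to 8.61, and none was called on its brightest probe or on its 1 or 2 other probes. The RSAD2 probes took opposite signs in CEM/BTZ7 against CEM/WT_BTZ, at -0.82 and 0.21. IFI35 ranged from 8.31 to 9.40 and was called only with the replicate block, in CEM/WT_BTZ against CEM/WT (-0.42, BH-adjusted p = 0.0477).

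SP100, a component of PML nuclear bodies, had probes that disagreed on a call. Its brightest probe had log2 levels of 16.68, 16.28 and 16.85 in CEM/BTZ7, 17.21 in CEM/BTZ100, 16.13 in CEM/BTZ200, 15.81 in CEM/BTZ-200, 15.36, 15.20 and 15.28 in CEM/WT_BTZ, and 17.14 and 16.31 in CEM/WT. The CEM/WT_BTZ samples were the lowest. On this probe the log2 fold change was -1.50 in CEM/WT_BTZ against CEM/WT (SE 0.254, BH-adjusted p = 0.014), 1.44 in CEM/BTZ7 against CEM/WT_BTZ (SE 0.235, BH-adjusted p = 0.00909) and -0.06 in CEM/BTZ7 against CEM/WT (SE 0.254, BH-adjusted p = 0.942). The 4 other SP100 probes gave 0.21 to 0.67 in CEM/WT_BTZ against CEM/WT and -1.08 to -0.36 in CEM/BTZ7 against CEM/WT_BTZ, none called, and the mean over the 5 probes gave 0.01 and -0.26 (BH-adjusted p = 0.983 and 0.518). SP100 therefore has no direction here that its probes share. The calls of the brightest probe were lost without CEM/WT replicate 1 or 2 after BTZ (up to 0.146), and without CEM/BTZ7 replicate 3 in CEM/BTZ7 (BH-adjusted p = 0.0577).

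**Figure D4:**
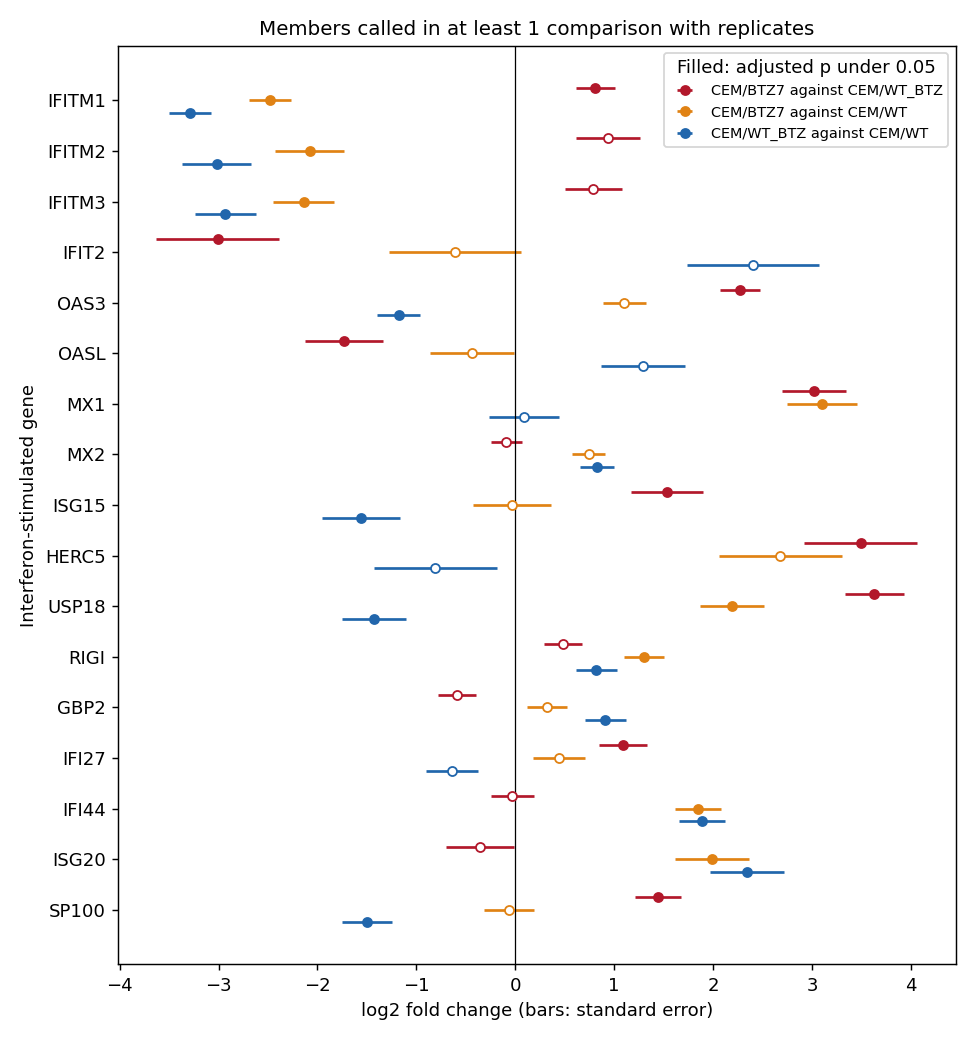
Points give the log2 fold change (x axis, bars are standard errors) of the 17 interferon-stimulated genes called in at least 1 of the 3 comparisons between groups with replicates, filled where the BH-adjusted p was under 0.05. The IFITM genes lie below 0 in both comparisons with CEM/WT, and MX1, HERC5 and USP18 lie at 3.02, 3.49 and 3.63 in CEM/BTZ7 against CEM/WT_BTZ.

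**Figure D5:**
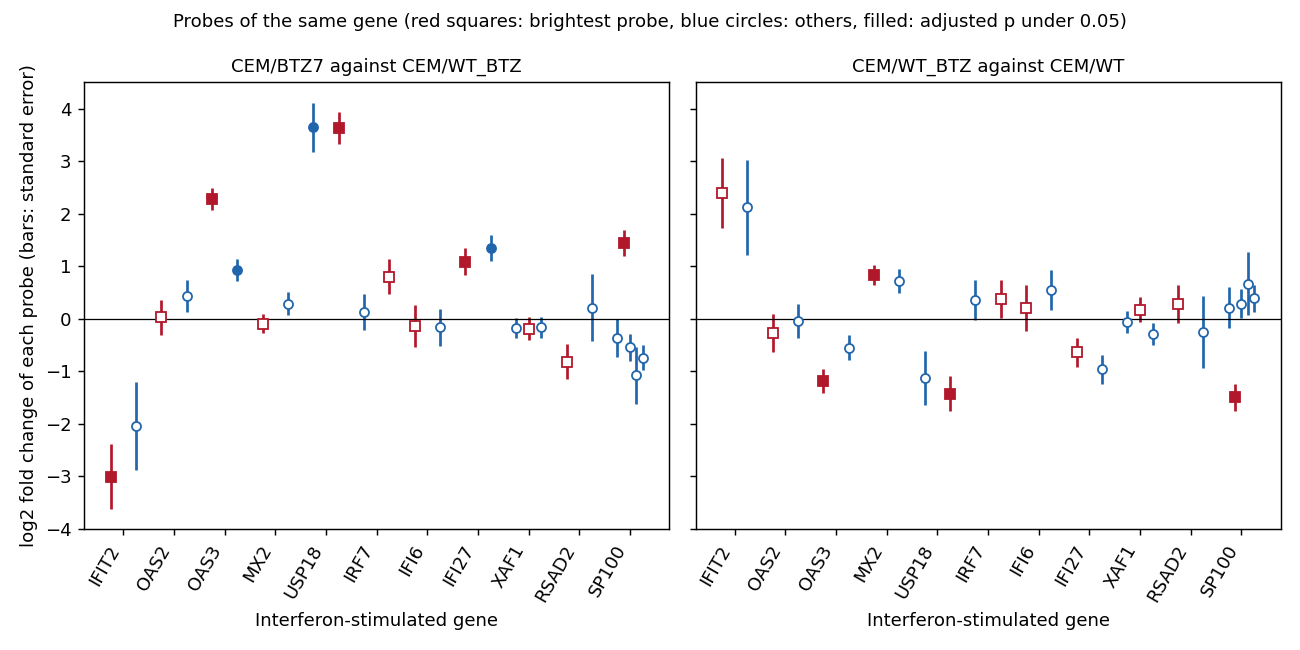
Each point is the log2 fold change of a probe (y axis, bars are standard errors) for genes with several kept probes, in CEM/BTZ7 against CEM/WT_BTZ (left) and CEM/WT_BTZ against CEM/WT (right); red squares are the brightest probe of a gene and filled symbols have an BH-adjusted p under 0.05 among probes. The brightest SP100 probe, at 1.44 and -1.50, lies on the other side of 0 from the 4 others, whereas the USP18 probes lie together at 3.63 and 3.65.

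The single subline samples had fewer calls than the groups with replicates. In CEM/BTZ100 against CEM/WT, 1 of 32 genes was higher (3.12%, against 1.05% of all genes) and 5 lower (15.6%, against 1.54%). In CEM/BTZ200 there were 1 higher and 3 lower (1.23% and 1.77% of all genes), and in CEM/BTZ-200 there were 3 higher and 1 lower (1.3% and 1.75% of all genes). IFI44 was the gene higher in both CEM/BTZ100 and CEM/BTZ200, and the IFITM genes were lower in both, whereas CEM/BTZ-200 had MX1, OAS3 and USP18 higher and GBP2 lower. Between CEM/BTZ200 and CEM/BTZ-200, which differ in drug and also in dye, 0 of 32 genes were called by limma (0.023% of all genes were higher and 0.294% lower). At an unadjusted p under 0.05 there were 10 of 32, beside 10.7% of all genes. The deposited value table and the fit without a dye term did call some of the 32. The share of all genes called in those fits was not counted. MX1 had a log2 fold change of -2.56 in CEM/BTZ200 against CEM/BTZ-200 (SE 0.610, BH-adjusted p = 0.199) and OAS3 one of -2.65 (SE 0.377, BH-adjusted p = 0.0624). The drug contrast of the parental cells minus that of the 200 nM subline, at unequal doses, passed limma's test for 0 of 32 genes (0.0748% of all genes), with the smallest BH-adjusted p at 0.207 for RSAD2. At an unadjusted p under 0.05 it held for 11 of 32 genes, beside 12.6% of all genes.

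The rest of the interferon pathway was read from lists of genes that are not among the 32. Among all genes, 6.48% were higher and 8.99% lower in CEM/WT_BTZ against CEM/WT, and 12.2% and 10.1% in CEM/BTZ7 against CEM/WT_BTZ. In CEM/BTZ7 against CEM/WT the shares were 1.9% and 1.54%. In lists this short, a single call says little about the list. Of 21 interferon ligand genes, 9 were measured, and IFNA21 was the gene called. It was below background in all 3 CEM/WT_BTZ samples, at least 1.54-fold lower than in CEM/WT (BH-adjusted p = 0.0292, and up to 0.25 without CEM/BTZ7 replicate 2 or any 1 parental replicate, where the call was lost). Of 6 receptor genes, all measured, IFNGR2, a chain of the interferon gamma receptor, was higher in CEM/BTZ7 than CEM/WT_BTZ and in CEM/WT. IFNGR2 had log2 levels of 8.85, 8.75 and 9.48 in CEM/BTZ7, 9.38 in CEM/BTZ100, 7.97 in CEM/BTZ200, 8.56 in CEM/BTZ-200, 6.23, 6.35 and 6.93 in CEM/WT_BTZ, and 6.51 and 6.12 in CEM/WT. All subline samples lay above all parental samples. The log2 fold change of IFNGR2 was 2.56 in CEM/BTZ7 against CEM/WT_BTZ (SE 0.311, BH-adjusted p = 0.00376) and 2.73 against CEM/WT (SE 0.336, BH-adjusted p = 0.0102, lost without CEM/WT replicate 1 or 2, up to 0.158). The partner chain IFNGR1 fell by 1.21 on the log2 scale in CEM/BTZ7 against CEM/WT_BTZ (SE 0.190, BH-adjusted p = 0.0081, and 0.0524 without CEM/BTZ7 replicate 3).

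Of 8 measured kinases and STATs, STAT5A, a cytokine-activated transcription factor, was called, with log2 fold changes of -1.35 in CEM/WT_BTZ against CEM/WT (BH-adjusted p = 0.0191) and 0.92 in CEM/BTZ7 against CEM/WT_BTZ (BH-adjusted p = 0.0362). Of all genes, 8.99% were lower in the first comparison and 12.2% higher in the second. Of 7 genes for other IRFs and IRF2-binding proteins, IRF2BP2, a corepressor of IRF2, was the gene called. It rose by 0.92 in CEM/WT_BTZ against CEM/WT (BH-adjusted p = 0.0428), where 6.48% of all genes were higher. IRF2, IRF3, IRF4, IRF5 and IRF8 were not called. Among the genes that sense nucleic acids, 4 of 15 were higher and 2 lower in CEM/WT_BTZ against CEM/WT, and 3 were higher and 4 lower in CEM/BTZ7 against CEM/WT_BTZ, beside 6.48% and 8.99%, and 12.2% and 10.1%, of all genes. TBK1, the kinase that activates IRF3, rose by 1.59 in CEM/WT_BTZ against CEM/WT (BH-adjusted p = 0.00746) and fell by 1.29 in CEM/BTZ7 against CEM/WT_BTZ (BH-adjusted p = 0.00724). In that comparison the helicase genes DDX60 and DHX58 rose by 3.07 and 1.38 (BH-adjusted p = 0.00671 and 0.00798), and TICAM1, the adaptor of TLR3, fell by 0.97 (BH-adjusted p = 0.00926). Of 14 negative regulators, 2 were higher and 3 lower in CEM/WT_BTZ against CEM/WT, and 3 higher and 2 lower in CEM/BTZ7 against CEM/WT_BTZ. A single gene is a large part of so short a list, and the shares of all genes are those just given.

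SOCS1, an inhibitor of JAK kinases, had log2 levels of 6.75, 7.01 and 7.05 in CEM/BTZ7, 6.28 in CEM/BTZ100, 6.88 in CEM/BTZ200, 7.63 in CEM/BTZ-200, 8.89, 9.31 and 9.28 in CEM/WT_BTZ, and 6.85 and 7.79 in CEM/WT. The CEM/WT_BTZ samples stood above all others. SOCS1 rose by 1.88 in CEM/WT_BTZ against CEM/WT (BH-adjusted p = 0.0122, and 0.118 without CEM/WT replicate 1) and fell by 2.31 in CEM/BTZ7 against CEM/WT_BTZ (BH-adjusted p = 0.00376). The phosphatase genes PTPN2 and PTPN6, whose products dephosphorylate JAKs and STATs, and NLRC5, an activator of MHC class I genes that also restrains interferon signalling, went the other way. Their log2 fold changes were -1.46, -1.05 and -1.42 in CEM/WT_BTZ against CEM/WT (BH-adjusted p = 0.00873, 0.0363 and 0.0104) and 1.46, 1.36 and 1.68 in CEM/BTZ7 against CEM/WT_BTZ (BH-adjusted p = 0.00455, 0.00978 and 0.0035).

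Another 50 genes measured were interferon-stimulated genes and relatives by name, such as IFITM5 and IFITM4P. These 2 were called in at least 1 comparison, and signal shared with IFITM1, IFITM2 or IFITM3 was not tested. Of the 50, 8 were higher and 8 lower in CEM/WT_BTZ against CEM/WT, where 6.48% of all genes were higher and 8.99% lower. In CEM/BTZ7 against CEM/WT_BTZ 8 were higher and 9 lower, beside 12.2% and 10.1% of all genes. In CEM/BTZ7 against CEM/WT 4 of the 50 were higher and 4 lower, beside 1.9% and 1.54% of all genes. Their median log2 fold changes in these comparisons were -0.08, 0.07 and -0.01, beside -0.02, 0.01 and -0.04 over all genes. In CEM/BTZ100 against CEM/WT, 2 of the 50 were higher and 7 lower (1.05% and 1.54% of all genes). There were 3 higher and 8 lower in CEM/BTZ200 (1.23% and 1.77%), and 2 higher and 1 lower in CEM/BTZ-200 (1.3% and 1.75%). In CEM/BTZ200 against CEM/BTZ-200, which differ in drug and dye, 0 were higher and 4 lower (0.023% and 0.294% of all genes). Each of these subline groups is a single sample. PARP12, a mono-ADP-ribosyltransferase with antiviral activity, had log2 levels of 10.12, 10.34 and 10.45 in CEM/BTZ7, 10.15 in CEM/BTZ100, 10.0 in CEM/BTZ200, 10.36 in CEM/BTZ-200, 6.97, 6.73 and 7.32 in CEM/WT_BTZ, and 7.32 and 7.54 in CEM/WT. All 6 subline samples lay between 10.0 and 10.45, with or without drug. PARP12 was higher in CEM/BTZ7 than CEM/WT_BTZ by 3.24 on the log2 scale (SE 0.218, BH-adjusted p = 0.00088) and than in CEM/WT by 2.84 (SE 0.236, BH-adjusted p = 0.00271, and 0.0504 without CEM/WT replicate 2). IFIT5, an RNA-binding relative of the IFIT genes above, rose by 3.11 in CEM/BTZ7 against CEM/WT (SE 0.252, BH-adjusted p = 0.00257), by 1.60 against CEM/WT_BTZ (SE 0.234, BH-adjusted p = 0.00644), and by 1.51 in CEM/WT_BTZ against CEM/WT (SE 0.252, BH-adjusted p = 0.0136, and 0.127 without CEM/WT replicate 1). LAMP3, a lysosomal membrane protein gene, fell by 3.19 in CEM/WT_BTZ against CEM/WT (SE 0.210, BH-adjusted p = 0.00145), and was higher in CEM/BTZ7 than CEM/WT_BTZ by 2.92 (SE 0.194, BH-adjusted p = 0.000865). The higher level in CEM/BTZ7 was not shared by all sublines under drug. LAMP3 had log2 levels of 9.23 in CEM/BTZ100, 8.08 in CEM/BTZ200 and 11.89 in CEM/BTZ-200. Against CEM/WT its log2 fold changes were -2.55, -3.7 and -0.19 in these samples.

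SAMD9L, an antiviral and growth-restraining gene, had log2 levels of 7.9, 8.21 and 8.01 in CEM/BTZ7, 8.06 in CEM/BTZ100, 8.33 in CEM/BTZ200, 5.71 in CEM/BTZ-200, 9.24, 9.16 and 8.54 in CEM/WT_BTZ, and 6.27 and 6.20 in CEM/WT. As for IFI44, the samples under drug were the high ones and CEM/BTZ-200 was not. SAMD9L rose by 2.71 in CEM/WT_BTZ against CEM/WT (SE 0.242, BH-adjusted p = 0.00332, and 0.0503 without CEM/WT replicate 1) and by 1.85 in CEM/BTZ7 against CEM/WT (SE 0.242, BH-adjusted p = 0.0127, lost without CEM/WT replicate 1 or 2 or CEM/BTZ7 replicate 2, up to 0.133). Of 9 measured targets of interferon gamma, WARS1, a tryptophan tRNA synthetase gene, was called, with log2 fold changes of 0.86 in CEM/WT_BTZ against CEM/WT (BH-adjusted p = 0.0311) and -0.68 in CEM/BTZ7 against CEM/WT_BTZ (BH-adjusted p = 0.0381). Of all genes, 6.48% were higher in the first comparison and 10.1% lower in the second. Of the 32 calls of the 18 named pathway genes in the comparisons between groups with replicates, 13 were kept without each replicate in turn. Calls kept were those of LAMP3 in both comparisons, IFIT5 and PARP12 in CEM/BTZ7 against CEM/WT_BTZ, IFIT5 in CEM/BTZ7 against CEM/WT, and, in CEM/BTZ7 against CEM/WT_BTZ, those of IFNGR2, DDX60, DHX58, TICAM1, NLRC5, SOCS1, PTPN2 and PTPN6. The other calls of STAT5A, IRF2BP2, TBK1, NLRC5, PTPN2, PTPN6, SAMD9L and WARS1 had BH-adjusted p up to 0.212 without 1 of the replicates. With the replicate block, calls were gained for IFNGR1 (0.73, BH-adjusted p = 0.0158) and DHX58 (-0.74, BH-adjusted p = 0.0207) in CEM/WT_BTZ against CEM/WT, for DDX60 (2.18, BH-adjusted p = 0.0297) and TICAM1 (-0.83, BH-adjusted p = 0.0396) in CEM/BTZ7 against CEM/WT, and for IFNA21 (0.60, BH-adjusted p = 0.0345) and IRF2BP2 (-0.46, BH-adjusted p = 0.0227) in CEM/BTZ7 against CEM/WT_BTZ. The CEM/WT_BTZ values of IFNA21 were all below background. Set against the negative controls, its fold in CEM/BTZ7 was 0.979, which bounds no rise.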

How the data were processed

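RNA of 11 samples carried either Cy3 or Cy5 on Agilent human genome arrays, per the labels. The deposited intensities are processed spot signals that the authors quantified with Agilent Feature Extraction, not normalized between arrays. The deposited log2 values, here the value table, were made by the authors with limma from background-corrected, loess- and quantile-normalized signals, and were used as an alternative. Versions of these tools and the genome build are not given in the sources used here. For CEM/BTZ7, intensity columns 1, 2 and 3 correlated best with value table columns 2, 3 and 1, and each table was used as its own column names say. No 2 samples held identical intensities.

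Intensities were quantile-normalized over 45015 spots, put on the log2 scale and averaged per probe (41000 probes). Probes above the 95th percentile of 153 negative controls in at least 2 samples were kept (37422). Gene symbols came from the platform annotation, updated through gene identifiers (29203 probes) or accessions (11). Another 30 symbols were kept as deposited, and probes with several (84) or none (11672) were left out. The brightest kept probe stood for each of 17372 genes. limma 3.58.1 (R 4.3.3) was used to fit the 6 groups and a dye term, with 4 residual and 2.4 prior degrees of freedom and Benjamini-Hochberg adjustment over all genes, and the script was checked on simulated data. The dye term called 0 genes. Adjusted p-values among probes come from a fit of each kept probe by itself. Members, lists and alternatives were chosen with earlier results of these data known. All 32 measured members are named. Full values are given for those called in at least 1 of the 3 comparisons between groups with replicates, and at most 4 called genes are named per pathway list. Deviations from group means of samples with the same replicate number correlated, with r between 0.29 and 0.53 over genes. A fit with the number as a block was therefore run for these 3 comparisons, with 2 residual degrees of freedom. For CEM/BTZ7 it used the numbers of the intensity columns, which matched other numbers in the value table. What the replicate number stands for is not stated.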

Additional observations from a re-analysis of the deposited data

How the results depend on the processing

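Of 44 calls of single members, the direction was kept under each alternative that gave a value, except for SP100 with the mean of its probes (0.01 in CEM/WT_BTZ against CEM/WT and -0.26 in CEM/BTZ7 against CEM/WT_BTZ). With the replicate block the count of genes called became 17 in place of 10 in CEM/BTZ7 against CEM/WT_BTZ and 13 in place of 8 in CEM/BTZ7 against CEM/WT, where it called 44% and 8.17% of all genes. Calls that it gained are given in the report, and it changed no other call of the named genes. It was not run for single samples, which have no replicate number. For the other alternatives the share of all genes called was not counted. Their counts therefore cannot tell a change in these genes from one over all genes. With only the 2 groups fitted, 4 genes in place of 12 were called in CEM/WT_BTZ against CEM/WT, ISG15, ISG20, MX2, OAS3, USP18, RIGI, SP100 and GBP2 being lost (adjusted p between 0.0564 and 0.109). This fit also lost OASL and IFITM1 in CEM/BTZ7 against CEM/WT_BTZ, and IFITM2 and RIGI in CEM/BTZ7 against CEM/WT (0.0524 to 0.0625). With 75th percentile scaling 2 in place of 4 were called in CEM/BTZ200 against CEM/WT, and ISG15, RIGI and GBP2 in CEM/WT_BTZ and ISG20 in CEM/BTZ7 were lost against CEM/WT (0.0501 to 0.0923). The mean of probes lost USP18 in CEM/WT_BTZ and CEM/BTZ-200 against CEM/WT (0.0835 and 0.0512). In CEM/BTZ200 against CEM/BTZ-200, in place of 0, 2 were called in the value table, 2 without a dye term and 1 with the dyes of CEM/BTZ7 taken from the matched value table columns, an alternative chosen after seeing the data. Those dyes also gained HERC5 (adjusted p = 0.0473) and OAS3 (0.0373) in CEM/BTZ7 against CEM/WT, and IFIT2 (0.0359) in CEM/WT_BTZ against CEM/WT. GBP2 in CEM/WT_BTZ against CEM/WT was lost with those dyes (0.0698) and with an intensity trend (0.0807). Without the filter on dim probes, ISG20 was lost in CEM/BTZ7 (0.0504) and IFITM2 in CEM/BTZ200, both against CEM/WT. The value table lost SP100 in CEM/BTZ7 against CEM/WT_BTZ (0.81, adjusted p = 0.074). A filter at 6 samples above background gained OAS3 in CEM/BTZ7 against CEM/WT (0.0469). An intensity trend (0.0254) and no dye term (0.0477) gained MX2 there, and no dye term gained IFITM2 in CEM/BTZ7 against CEM/WT_BTZ (0.0425). Other gains of HERC5, OAS3 and IFIT2 are given in the report. Leaving out 1 replicate gave 2 to 11 genes called in CEM/WT_BTZ against CEM/WT, 5 to 10 in CEM/BTZ7 against CEM/WT_BTZ, 0 to 9 in CEM/BTZ7 against CEM/WT, 1 to 6 in CEM/BTZ100, 0 to 4 in CEM/BTZ200 and 0 to 4 in CEM/BTZ-200, all against CEM/WT. The cause was not tested. Fewer samples leave fewer residual degrees of freedom. Dim genes in the 200 nM sublines, whose arrays had the lowest signal, are limited by the negative controls.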
